A study of Homo sapiens with 9 samples.

Results

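The genes described here are NFE2L2, which encodes the transcription factor NRF2, and 8 genes known as its antioxidant and detoxification targets: GCLM, GCLC, TXNRD1, SRXN1, NQO1, HMOX1, AKR1C1 and AKR1B10. They were chosen by name, with earlier results of these data known, and all 9 were found among the 58381 genes of the count tables through their Ensembl identifiers. Expression was measured by RNA sequencing in 9 libraries of EGI-1, an established line of human cholangiocarcinoma, a cancer of the bile ducts. The study compared cells in which FOSL1 was knocked down with cells carrying a control hairpin. FOSL1 encodes FRA1, a subunit of the AP-1 transcription factor.

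The groups were FOSL1sh3 and FOSL1sh10, which carried different short hairpin RNAs against FOSL1, and GFPsh, which carried a hairpin against GFP, with 3 libraries in each. All hairpins were TET-inducible, and every group, GFPsh included, received 2 ug/ml of doxycycline over 4 days and was seeded for 24 h before harvest. No untreated group was analysed here, so an effect of doxycycline itself is shared by all groups. Whether the replicates are separate cultures is not stated in the labels, so a p-value here reflects the spread among these libraries alone, and that spread may be technical.

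NRF2 is a basic leucine zipper protein that is held in the cytoplasm and marked for degradation by KEAP1 as long as the cell is not under oxidative or electrophilic stress. When KEAP1 is modified by electrophiles, NRF2 accumulates, pairs with a small MAF protein and binds antioxidant response elements near genes of glutathione synthesis, the thioredoxin system, quinone and carbonyl reduction and haem breakdown. The core of the element resembles the AP-1 site, and BACH1 competes for it. NRF2 activity is set largely by protein stability, which messenger RNA does not report.

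The 9 libraries held 6893026 to 10604251 counts each. CPM here is the count per 1000000 of the library total after scaling by the trimmed mean of M values (TMM), and 3 counts stood for 0.305 to 0.432 CPM. FOSL1 had 72.1, 70.1 and 44.8 CPM in FOSL1sh3 and 70.7, 57.0 and 65.7 CPM in FOSL1sh10, against 302, 256 and 182 CPM in GFPsh. It fell by 1.98 on the log2 scale in FOSL1sh3 (SE 0.198, edgeR quasi-likelihood adjusted p = 1.2e-05) and by 1.94 in FOSL1sh10 (SE 0.197, adjusted p = 1.03e-05), and the difference between the hairpins was -0.05 (adjusted p = 0.9). All 7 epithelial markers examined passed the filter on low counts, led by KRT18. In bulk RNA, fewer cells expressing a gene and less of its RNA per cell cannot be told apart.

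The promoter sequences of 2 target genes are shown because they hold the consensus core of the antioxidant response element, TGACNNNGC, and because GCLM was called in these data while TXNRD1, abundant in every group, was not. RefSeq promoter windows (GRCh38.p14, 250 bases before to 50 bases after a start site) were at hand for 7 of the 9 genes, in 9 windows, and no sequence of HMOX1 or AKR1B10 was used here. On either strand, the core was in 4687 of all 35116 windows (13.3%), and among the 9 windows it was in that of GCLM and in both of TXNRD1. The AP-1 core TGANTCA, which reads the same on both strands, was in 2707 windows (7.71%) and in none of the 9. Below, capitals mark the antioxidant response element core, which in both windows lies on the opposite strand.
GCLM, chr1:93909381-93909680, minus strand: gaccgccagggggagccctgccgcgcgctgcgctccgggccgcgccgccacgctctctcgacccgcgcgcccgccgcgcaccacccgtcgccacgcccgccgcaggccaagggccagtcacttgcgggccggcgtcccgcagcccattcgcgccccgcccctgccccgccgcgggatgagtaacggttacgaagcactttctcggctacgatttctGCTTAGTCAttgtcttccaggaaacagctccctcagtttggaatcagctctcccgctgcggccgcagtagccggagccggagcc
TXNRD1, chr12:104286782-104287081, plus strand: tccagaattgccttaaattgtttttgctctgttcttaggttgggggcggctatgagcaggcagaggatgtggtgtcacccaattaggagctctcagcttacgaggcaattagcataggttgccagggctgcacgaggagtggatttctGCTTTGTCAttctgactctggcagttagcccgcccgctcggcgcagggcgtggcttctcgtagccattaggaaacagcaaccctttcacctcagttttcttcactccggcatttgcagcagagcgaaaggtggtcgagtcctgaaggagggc
Read on its own strand, the GCLM match was TGACTAAGC, at bases -34 to -26 from the start site. The TXNRD1 match above was TGACAAAGC, at -102 to -94. The other TXNRD1 window held TGACTTCGC at -99 to -91 and, on the opposite strand, TGACGGAGC at -8 to 1. The windows of NFE2L2, NQO1, GCLC, AKR1C1 and SRXN1 held neither core. Sequence farther from the start site was not searched, so a window without a match does not show that the gene lacks the element. A match describes the letters of the window and is not evidence that a factor binds there.

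Of the 9 genes, 8 had enough counts for a test, and SRXN1 did not. GCLM fell in FOSL1sh3 and HMOX1 rose in FOSL1sh10, and none of the 8 was called with both hairpins. The share of all tested genes called with both was not counted. In FOSL1sh3 against GFPsh, 1 of the 8 was called at an adjusted p under 0.05 (edgeR quasi-likelihood test, Benjamini-Hochberg adjustment over 12814 genes), beside 10.9% of all tested genes (5.21% higher and 5.65% lower). Their log2 fold changes lay above 0 for 2 genes and below 0 for 6, with a median of -0.10, beside 0.01 for all genes. In FOSL1sh10 against GFPsh, 1 of 8 was called, beside 5.28% of all genes (3.13% higher and 2.15% lower). There 7 fold changes were above 0 and 1 below, with a median of 0.19, beside 0.00 for all genes. AKR1C1, which passed the low-count filter through hairpin libraries alone, is among those above 0 in both comparisons with GFPsh. In FOSL1sh3 against FOSL1sh10, GCLM, HMOX1 and AKR1B10 were called, all lower in FOSL1sh3, 3 of 8 beside 12.7% of all genes (5.74% higher and 7.00% lower). In that comparison the median of the 8 was -0.55, with 1 above 0 and 7 below. Because the genes were chosen with earlier results of these data known, these shares are descriptive. Both comparisons with the control use the same GFPsh libraries. With scaling by library totals alone, the median of all genes was -0.06 in FOSL1sh3 against GFPsh, 0.11 in FOSL1sh10 against GFPsh and -0.17 between the hairpins. The higher share of all calls was then 34.0%, 77.5% and 17.6%, beside 48.0%, 59.3% and 45.1% under TMM. Where groups are said below not to overlap, this describes the libraries, and the share of all genes with such separation was not counted.

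**Figure D1:**
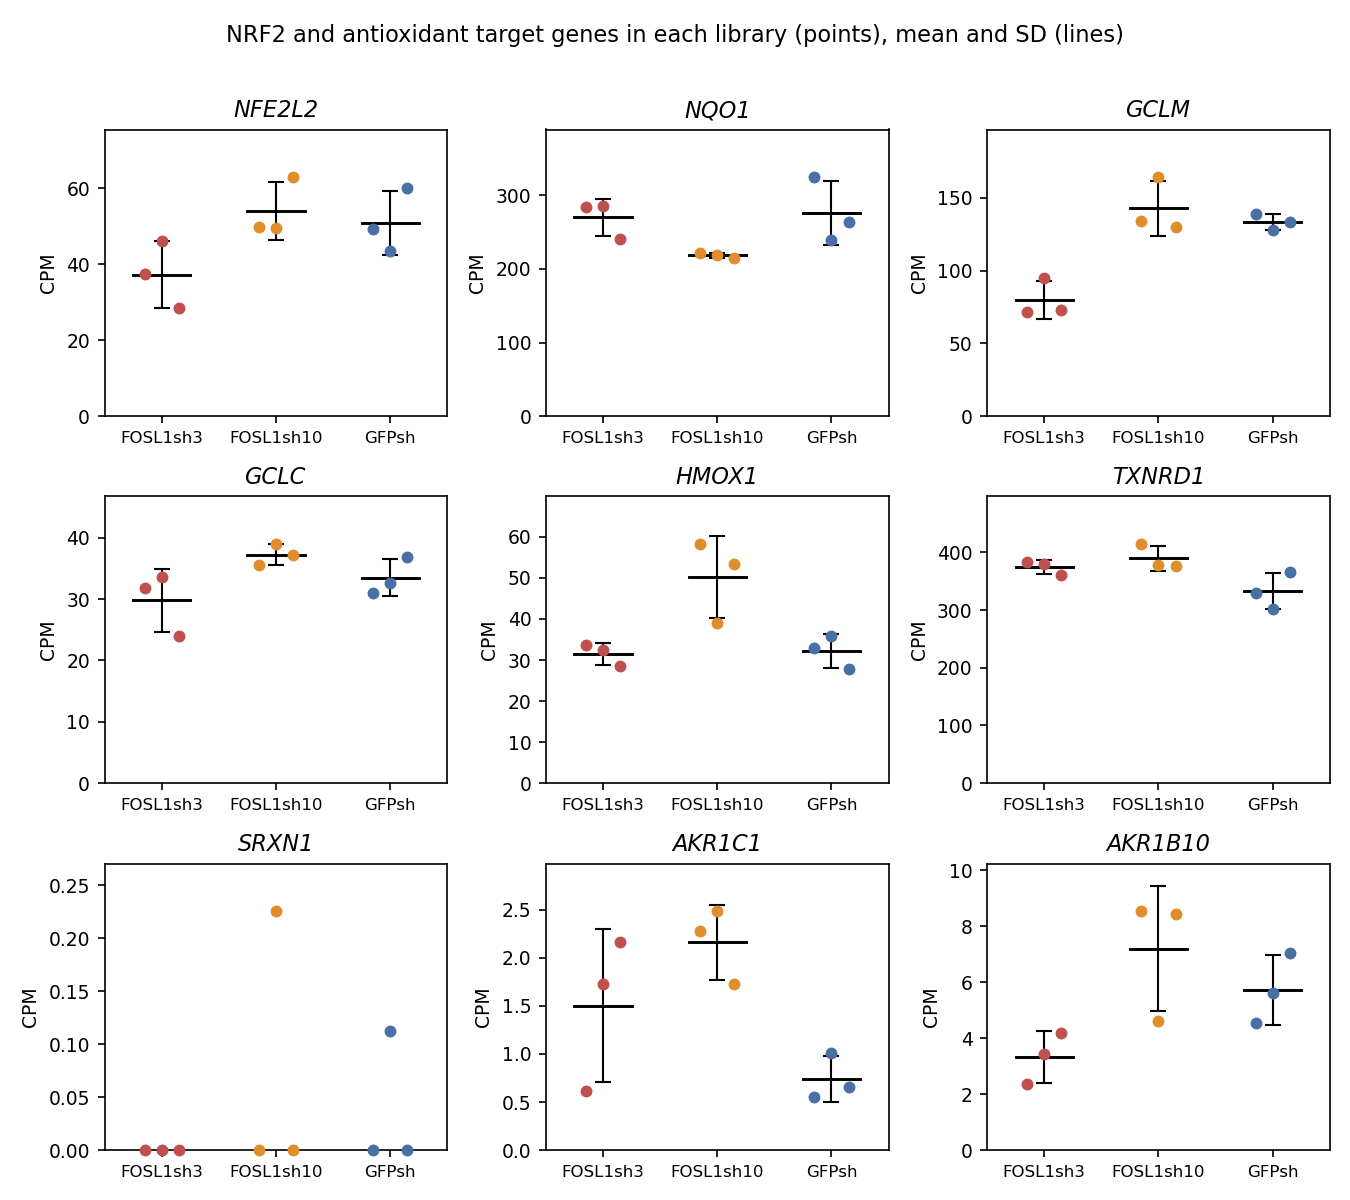
TMM-scaled CPM (vertical axes, each from 0) of the 9 genes in each library of FOSL1sh3, FOSL1sh10 and GFPsh. Points are libraries, and lines the mean and SD of 3 (not drawn for SRXN1, which had 0 to 2 counts). All 3 FOSL1sh3 points of GCLM lie below those of the other groups, and all 3 FOSL1sh10 points of HMOX1 lie above them.

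NFE2L2 (ENSG00000116044.15, hg38 chr2:177227595-177392697, minus strand) had 37.4, 46.1 and 28.4 CPM in FOSL1sh3, 49.8, 49.6 and 62.9 CPM in FOSL1sh10 and 49.4, 43.5 and 60.0 CPM in GFPsh. The FOSL1sh3 libraries were below all FOSL1sh10 libraries and overlapped those of GFPsh through replicate 2. NFE2L2 averaged 37.3 ± 8.81 CPM in FOSL1sh3, 54.1 ± 7.62 in FOSL1sh10 and 51.0 ± 8.40 in GFPsh (SD, n = 3 each). Its log2 fold change was -0.45 in FOSL1sh3 (SE 0.179, 95% interval -0.83 to -0.08, edgeR adjusted p = 0.111) and 0.09 in FOSL1sh10 (SE 0.177, -0.28 to 0.46, adjusted p = 0.847). Between the hairpins it was -0.54 (SE 0.179, -0.92 to -0.17, adjusted p = 0.0542). Neither comparison with GFPsh nor the one between hairpins passed the threshold. The call depended on single choices: FOSL1sh3 against GFPsh passed without FOSL1sh3 replicate 2 (adjusted p = 0.034). The difference between hairpins passed without that library (0.0166), with library totals alone (0.0115), without the low-count filter (0.0259) and by DESeq2 (0.0499). Exons of other genes cover 20.9% of the NFE2L2 exon bases, and reads there are left unassigned. Most of that is ENSG00000213963.6 on the same strand, with 1054 of the 5979 bases (17.6%), and AGPS on the opposite strand covers 54.

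GCLM and GCLC encode the modifier and the catalytic subunit of glutamate-cysteine ligase, the rate-limiting enzyme of glutathione synthesis. GCLM (ENSG00000023909.9, chr1:93885205-93909456, minus strand) had 71.4, 94.7 and 72.7 CPM in FOSL1sh3, 134, 164 and 130 CPM in FOSL1sh10, and 139, 128 and 134 CPM in GFPsh. Every FOSL1sh3 library was below every library of the other groups, and those of FOSL1sh10 overlapped GFPsh. GCLM averaged 79.6 ± 13.1 CPM in FOSL1sh3, 143 ± 18.7 in FOSL1sh10 and 133 ± 5.32 in GFPsh (SD, n = 3 each). It fell in FOSL1sh3 to 0.596 times its GFPsh level (log2 fold change -0.75, SE 0.148, 95% interval -1.06 to -0.44, edgeR adjusted p = 0.00423). In FOSL1sh10 against GFPsh the log2 fold change was 0.10 (SE 0.146, -0.21 to 0.40, adjusted p = 0.779), and FOSL1sh3 was at 0.557 times FOSL1sh10 (log2 -0.84, SE 0.148, -1.15 to -0.53, adjusted p = 0.00132). The 2 calls of GCLM held under all 11 alternative settings, with log2 fold changes of -0.89 to -0.67 in FOSL1sh3 against GFPsh and of -1.02 to -0.72 between the hairpins.

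GCLC (ENSG00000001084.11, chr6:53497341-53616970, minus strand) had 31.7, 33.7 and 24.0 CPM in FOSL1sh3, 35.6, 38.9 and 37.2 CPM in FOSL1sh10, and 31.0, 32.7 and 36.8 CPM in GFPsh. The groups overlapped in both comparisons with GFPsh, while all FOSL1sh3 libraries were below those of FOSL1sh10. Its log2 fold changes were -0.17 in FOSL1sh3 (SE 0.159, -0.50 to 0.16, adjusted p = 0.532), 0.15 in FOSL1sh10 (SE 0.157, -0.18 to 0.48, adjusted p = 0.661) and -0.32 between the hairpins (SE 0.158, -0.65 to 0.01, adjusted p = 0.191). That last value passed with library totals alone (adjusted p = 0.0427). The ratio of GCLM to GCLC, each in CPM per kilobase of exon, was 3.59, 4.49 and 4.84 in FOSL1sh3, 6.02, 6.73 and 5.57 in FOSL1sh10, and 7.15, 6.25 and 5.78 in GFPsh. All 3 FOSL1sh3 ratios were the lowest of the 9, and the other groups overlapped. The library protocol reads transcripts near their 3′ ends, so the size of the ratio depends on the annotated exon lengths. Its order among libraries does not. The ratio contains GCLM and is not separate from the GCLM call. An exact two-sided permutation test gave p = 0.1 for FOSL1sh3 against GFPsh and for FOSL1sh3 against FOSL1sh10, the smallest p that 3 libraries a group allow, and 0.6 for FOSL1sh10 against GFPsh.

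**Figure D2:**
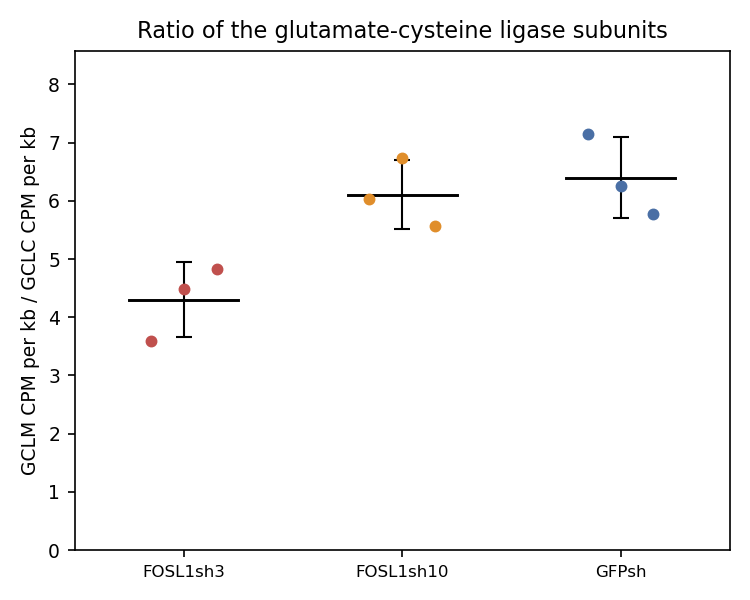
Ratio of GCLM to GCLC CPM per kilobase (vertical axis, from 0) in each library of FOSL1sh3, FOSL1sh10 and GFPsh, with the mean and SD of 3. The FOSL1sh3 points lie at 3.59 to 4.84, below the lowest point of the other groups, 5.57. The size of the ratio depends on annotated exon length.

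TXNRD1 encodes the cytosolic thioredoxin reductase, which keeps thioredoxin reduced with electrons from NADPH. TXNRD1 (ENSG00000198431.15, chr12:104215779-104350305, plus strand) had 383, 380 and 361 CPM in FOSL1sh3, 414, 378 and 377 CPM in FOSL1sh10, and 330, 302 and 365 CPM in GFPsh. Every FOSL1sh10 library was above every GFPsh library, and the FOSL1sh3 libraries overlapped both other groups. Its log2 fold changes were 0.17 in FOSL1sh3 (SE 0.13, 95% interval -0.10 to 0.44, edgeR adjusted p = 0.429) and 0.23 in FOSL1sh10 (SE 0.13, -0.04 to 0.50, adjusted p = 0.363), with -0.06 between the hairpins (adjusted p = 0.813). None of these passed the threshold, and the intervals leave out falls beyond -0.10 and rises beyond 0.50 against GFPsh.

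SRXN1 encodes sulfiredoxin, which restores over-oxidised peroxiredoxins. SRXN1 (ENSG00000271303.1, chr20:646615-653370, minus strand) had 0 counts in all 3 FOSL1sh3 libraries, 0, 2 and 0 counts in FOSL1sh10 and 0, 1 and 0 counts in GFPsh. These counts are below the test's filter and give no fold change. Of its 2698 exon bases, 2292 (85.0%) are also exon of another gene on the same strand, ENSG00000270299.1, which held 6 counts in all. With its default setting featureCounts leaves a read over exons of 2 genes unassigned, so the SRXN1 level cannot be read from these tables.

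NQO1 encodes NAD(P)H quinone dehydrogenase 1, which reduces quinones and is a widely used readout of NRF2 activity. NQO1 (ENSG00000181019.12, chr16:69706996-69726951, minus strand) had 284, 285 and 241 CPM in FOSL1sh3, 222, 219 and 215 CPM in FOSL1sh10, and 325, 239 and 264 CPM in GFPsh. Every FOSL1sh10 library was below every library of the other groups, and FOSL1sh3 and GFPsh overlapped. NQO1 averaged 270 ± 25.1 CPM in FOSL1sh3, 219 ± 3.18 in FOSL1sh10 and 276 ± 43.9 in GFPsh (SD, n = 3 each). Its log2 fold changes were -0.03 in FOSL1sh3 (SE 0.141, 95% interval -0.33 to 0.27, edgeR adjusted p = 0.918), -0.33 in FOSL1sh10 (SE 0.141, -0.63 to -0.04, adjusted p = 0.19) and 0.30 between the hairpins (SE 0.141, 0.01 to 0.60, adjusted p = 0.166). None passed the threshold. The groups did not overlap in the comparisons that involve FOSL1sh10, which is a description and not a test. Exons of a gene on the opposite strand, with no counts, cover 17.7% of the NQO1 exon bases.

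HMOX1 encodes haem oxygenase 1, the inducible enzyme that splits haem into biliverdin, iron and carbon monoxide, and it is known as a gene repressed by BACH1. HMOX1 (ENSG00000100292.16, chr22:35380361-35394214, plus strand) had 33.6, 32.4 and 28.4 CPM in FOSL1sh3, 58.2, 38.9 and 53.5 CPM in FOSL1sh10, and 32.9, 35.8 and 27.8 CPM in GFPsh. FOSL1sh10 was above both other groups in every library, with replicate 2 nearest to them, and FOSL1sh3 lay within the GFPsh range. HMOX1 averaged 31.5 ± 2.70 CPM in FOSL1sh3, 50.2 ± 10.0 in FOSL1sh10 and 32.2 ± 4.04 in GFPsh (SD, n = 3 each). It rose 1.56-fold in FOSL1sh10 against GFPsh (log2 0.64, SE 0.167, 95% interval 0.29 to 0.99, edgeR adjusted p = 0.0295), while the log2 fold change in FOSL1sh3 was -0.03 (SE 0.169, -0.39 to 0.32, adjusted p = 0.931). FOSL1sh3 was at 0.628 times FOSL1sh10 (log2 -0.67, SE 0.168, adjusted p = 0.0143). The rise in FOSL1sh10 did not pass without GFPsh replicate 1 (adjusted p = 0.0907) or 3 (0.139), or without FOSL1sh10 replicate 1 (0.15) or 3 (0.129). The difference between hairpins did not pass without FOSL1sh10 replicate 1 (0.0701) or 3 (0.0651).

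Markers of other cell types were low in all libraries. The most abundant were PECAM1 among endothelial, CD14 among leukocyte and COL1A1 among fibroblast markers. Since 3 counts stood for 0.305 to 0.432 CPM, the endothelial sums rest on few counts. The endothelial sum was higher in FOSL1sh10, the group with more HMOX1, than in both other groups. Leukocyte sums of both hairpins lay above GFPsh, in FOSL1sh3 too, where HMOX1 lay within the GFPsh range. Fibroblast sums lay wholly above GFPsh in FOSL1sh10 alone. The 3 endothelial markers, none of which passed the filter, summed to 0.576 to 1.33 CPM in FOSL1sh3, 3.41 to 3.56 CPM in FOSL1sh10 and 0.77 to 0.826 CPM in GFPsh. The 4 leukocyte markers, of which 1 passed, summed to 5.22 to 6.76 CPM in FOSL1sh3, 5.12 to 8.84 CPM in FOSL1sh10 and 2.92 to 4.51 CPM in GFPsh, with CD3E at 0 in every library. Among fibroblast markers DCN and PDGFRB were at 0 in every library, and 1 of 4 passed. Sums were 2.97 to 6.85 CPM in FOSL1sh3, 4.70 to 6.0 CPM in FOSL1sh10 and 2.13 to 3.96 CPM in GFPsh. None of the 4 hepatocyte markers passed, with CYP3A4 at 0 in every library and sums of at most 0.717 CPM in FOSL1sh3, 0.338 CPM in FOSL1sh10 and 0.786 CPM in GFPsh. The part of these markers in the HMOX1 values was not tested.

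AKR1C1 and AKR1B10 encode aldo-keto reductases that reduce ketones, aldehydes and steroids, and both are known in human cells as NRF2 targets. AKR1B10 (ENSG00000198074.9, chr7:134527592-134541408, plus strand) had 2.36, 3.45 and 4.19 CPM in FOSL1sh3 (23, 24 and 33 counts), 8.54, 4.63 and 8.44 CPM in FOSL1sh10 (60, 41 and 83 counts), and 4.54, 5.61 and 7.04 CPM in GFPsh (33, 50 and 64 counts). All FOSL1sh3 libraries were below all others, and FOSL1sh10 overlapped GFPsh through replicate 2. Its log2 fold changes were -0.80 in FOSL1sh3 (SE 0.318, 95% interval -1.47 to -0.14, edgeR adjusted p = 0.112) and 0.32 in FOSL1sh10 (SE 0.294, -0.30 to 0.94, adjusted p = 0.618). FOSL1sh3 was at 0.46 times FOSL1sh10 (log2 -1.12, SE 0.313, -1.78 to -0.46, adjusted p = 0.0256). That call did not pass without FOSL1sh3 replicate 1 (adjusted p = 0.0951) or without FOSL1sh10 replicate 1 (0.0826) or 3 (0.109).

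AKR1C1 (ENSG00000187134.13, chr10:4963253-4983283, plus strand) was near the limit of the counts, with 6, 12 and 17 counts in FOSL1sh3, 16, 22 and 17 in FOSL1sh10 and 4, 9 and 6 in GFPsh. In CPM these were 0.614, 1.73 and 2.16 in FOSL1sh3, 2.28, 2.48 and 1.73 in FOSL1sh10, and 0.55, 1.01 and 0.66 in GFPsh. Every FOSL1sh10 library was above every GFPsh library, and FOSL1sh3 overlapped both groups. Its log2 fold changes were 0.95 in FOSL1sh3 (SE 0.529, -0.16 to 2.06, adjusted p = 0.262), 1.51 in FOSL1sh10 (SE 0.503, 0.45 to 2.56, adjusted p = 0.0921) and -0.55 between the hairpins (adjusted p = 0.464). With only the FOSL1sh10 and GFPsh libraries in the fit, the FOSL1sh10 value passed (adjusted p = 0.0412). In that fit AKR1C1 cleared the low-count filter only through FOSL1sh10, the group where it was high, so this value is no separate support for a rise. In the fit of all 9 libraries it cleared the filter through hairpin libraries alone, since every GFPsh count was under 10. The values of 0.95 and 1.51 against GFPsh are therefore no support for a rise either. AKR1C1 shares nearly identical sequence with AKR1C2, and a read that aligns to several members of the family is not counted, so the AKR1C1 level is uncertain.

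**Figure D3:**
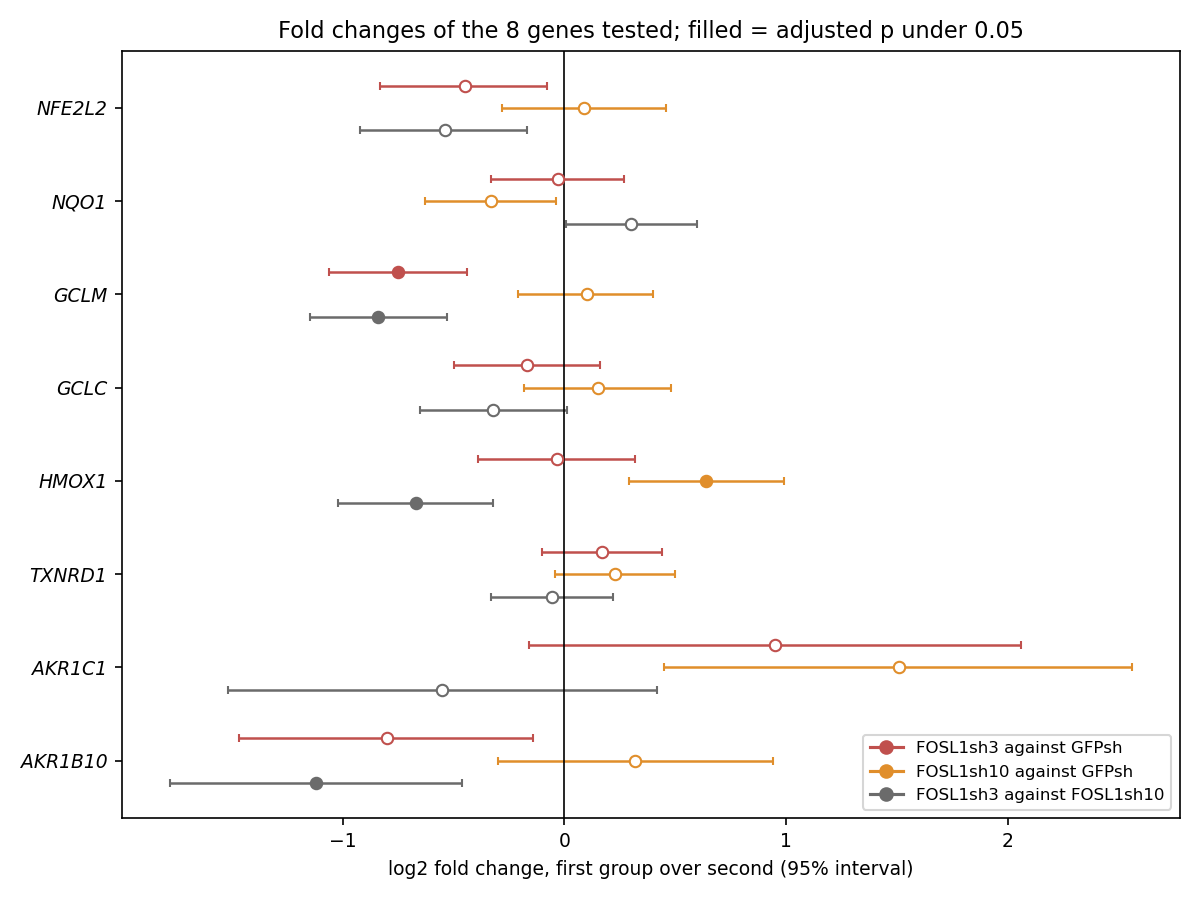
Log2 fold changes (horizontal axis) of the 8 tested genes in FOSL1sh3 against GFPsh, FOSL1sh10 against GFPsh and FOSL1sh3 against FOSL1sh10, with 95% intervals; filled points had an adjusted p under 0.05. GCLM is filled at -0.75 and -0.84, HMOX1 at 0.64 and -0.67, and AKR1B10 at -1.12.

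Within FOSL1sh3, replicate 3 had the lowest CPM of the 3 libraries for NFE2L2, NQO1, GCLC, HMOX1 and TXNRD1, and the highest for AKR1C1 and AKR1B10. Compared per length in GFPsh, NQO1 stood first with 84.8 ± 13.5 CPM per kilobase of exon (SD, n = 3), ahead of TXNRD1 with 49.6 ± 4.70. GCLM had 24.6 ± 0.981, HMOX1 13.4 ± 1.68 and NFE2L2 8.52 ± 1.41 CPM per kilobase. GCLC, with 3.87 ± 0.349, and AKR1B10, with 3.29 ± 0.718, did not differ beyond their spread, and AKR1C1 had 0.0844 ± 0.0274. The library protocol reads transcripts near their 3′ ends, so a level per exon length understates genes with long annotated exons, and the order holds for this scale only. The tested genes whose log2 CPM followed NFE2L2 most closely over the 9 libraries were CXADR (Pearson r = 0.97), SIKE1 (0.952) and OAS3 (0.946). For NQO1 they were MIOS (0.934), VDAC3 (0.919) and CHUK (0.911). These are the highest of 9988 genes compared and serve as a description.

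A wider set of 66 redox genes in 7 lists was examined beside them, of which 58 were tested. These lists too were chosen with earlier results of these data known, so their shares are descriptive. In FOSL1sh3 against GFPsh 6 were higher, 3 were lower and 49 were not called, 15.5% called beside 10.9% of all genes, with a median log2 fold change of 0.08. In FOSL1sh10 against GFPsh 1 was higher and 1 lower, 3.45% beside 5.28% of all genes, with a median of -0.05. Between the hairpins 5 were higher and 2 lower in FOSL1sh3, 12.1% beside 12.7%, with a median of 0.03. Of these genes, PIR and GPX4 were called with both hairpins, each in the same direction. The share of all tested genes called with both was not counted, and both comparisons use the same GFPsh libraries. PIR, an iron-binding nuclear protein of the cupin family, had 11.8, 12.2 and 11.3 CPM in FOSL1sh3 and 11.5, 14.0 and 12.8 CPM in FOSL1sh10, against 19.3, 19.7 and 24.3 CPM in GFPsh. Every FOSL1 hairpin library was below every GFPsh library. It fell by 0.84 on the log2 scale in FOSL1sh3 (SE 0.181, edgeR adjusted p = 0.00711) and by 0.72 in FOSL1sh10 (SE 0.179, adjusted p = 0.0226). The FOSL1sh10 call did not pass with library totals alone (0.0561) or without GFPsh replicate 3 (0.116) or FOSL1sh10 replicate 1 (0.0982), 2 (0.0503) or 3 (0.0833).

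GPX4, the glutathione peroxidase that reduces lipid hydroperoxides and guards against ferroptosis, had 1138, 987 and 1102 CPM in FOSL1sh3 and 1009, 1023 and 1152 CPM in FOSL1sh10, against 742, 713 and 718 CPM in GFPsh. No hairpin library overlapped GFPsh. It rose by 0.57 in FOSL1sh3 (SE 0.131, edgeR adjusted p = 0.0105) and by 0.55 in FOSL1sh10 (SE 0.131, adjusted p = 0.0172). The FOSL1sh10 call did not pass without GFPsh replicate 1 (0.0684), 2 (0.0683) or 3 (0.0599), or without FOSL1sh10 replicate 2 (0.0558) or 3 (0.105). The other 3 tested superoxide and peroxide enzymes were not called, with log2 fold changes of -0.19 to 0.04 in FOSL1sh3 and -0.21 to 0.26 in FOSL1sh10.

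**Figure D4:**
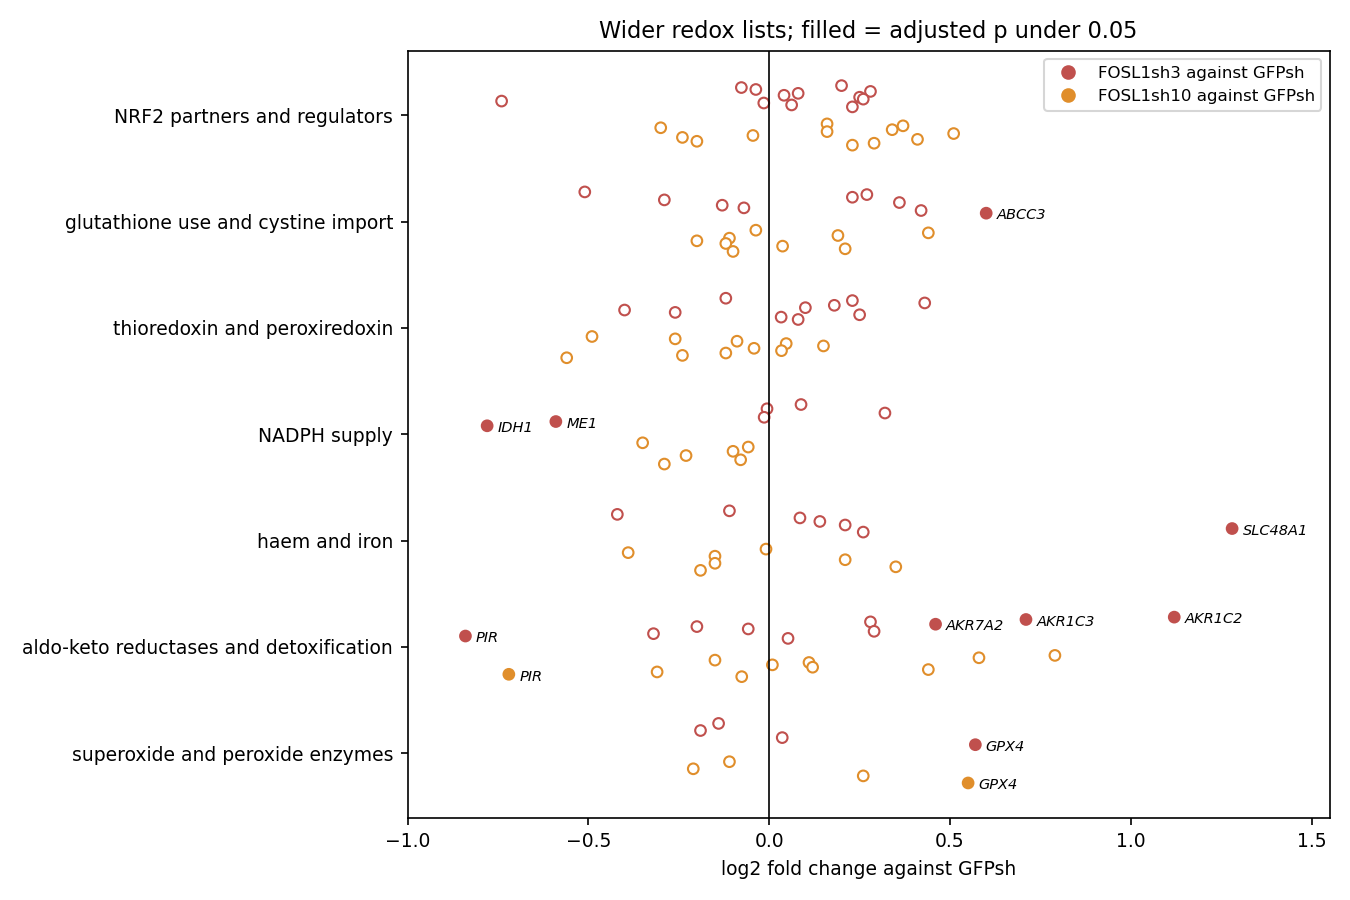
Log2 fold changes against GFPsh (horizontal axis) of the tested genes of 7 redox lists (rows), in FOSL1sh3 (upper points) and FOSL1sh10 (lower points); filled, named points had an adjusted p under 0.05. Only PIR, at -0.84 and -0.72, and GPX4, at 0.57 and 0.55, are filled for both hairpins. The share of all tested genes called with both was not counted.

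None of the 12 tested partners and regulators of NRF2 was called against GFPsh with either hairpin. Of all tested genes, 10.9% were called in FOSL1sh3 and 5.28% in FOSL1sh10. These shares stand beside the counts of every list here. KEAP1, the substrate adaptor that targets NRF2 for degradation, averaged 93.8 ± 14.2 CPM in FOSL1sh3, 91.5 ± 5.59 in FOSL1sh10 and 81.7 ± 4.50 in GFPsh (SD, n = 3 each), with log2 fold changes of 0.20 (edgeR adjusted p = 0.389) and 0.16 (adjusted p = 0.581). The small MAF genes MAFF and MAFG, whose products pair with NRF2, had log2 fold changes of 0.28 and 0.08 in FOSL1sh3 (adjusted p = 0.225 and 0.739) and 0.34 and 0.16 in FOSL1sh10 (adjusted p = 0.193 and 0.554). NFE2L3, a related factor chosen after its values were seen, averaged 7.47 ± 1.63 CPM in FOSL1sh3, 16.5 ± 4.07 in FOSL1sh10 and 12.5 ± 1.99 in GFPsh. It was lower in FOSL1sh3 than in FOSL1sh10 (log2 -1.15, SE 0.233, adjusted p = 0.00375), and against GFPsh its FOSL1sh3 value of -0.74 had an adjusted p of 0.0506. That value passed without FOSL1sh3 replicate 2 (0.0345) and in 4 further alternatives, and adjusted p ran from 0.0294 to 0.175 over all of them.

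Among 9 tested genes of glutathione use and cystine import, 1 was called against GFPsh. ABCC3, an exporter of glutathione and glucuronide conjugates, averaged 78.3 ± 3.31 CPM in FOSL1sh3, 47.9 ± 1.97 in FOSL1sh10 and 51.5 ± 7.16 in GFPsh. It rose by 0.60 on the log2 scale in FOSL1sh3 (SE 0.137, edgeR adjusted p = 0.00977) and its value in FOSL1sh10 was -0.10 (adjusted p = 0.747), with a difference between hairpins of 0.71 (adjusted p = 0.00281). The FOSL1sh3 call did not pass without GFPsh replicate 3 (0.0545). None of the 10 tested thioredoxin and peroxiredoxin genes was called against GFPsh, with log2 fold changes of -0.40 to 0.43 in FOSL1sh3 and -0.56 to 0.15 in FOSL1sh10. GSTP1, a glutathione transferase, and TXN2, the mitochondrial thioredoxin, both named after their values were seen, were higher in FOSL1sh3 than in FOSL1sh10 by 0.56 and 0.49 (adjusted p = 0.0446 and 0.0415). Both calls were lost without FOSL1sh3 replicate 1 (GSTP1 0.0809, TXN2 0.0792) or 3 (0.211, 0.168) and without FOSL1sh10 replicate 1 (0.124, 0.11), 2 (0.0706, 0.133) or 3 (0.134, 0.0854). They were also lost with library totals alone (0.138, 0.17) and with only the FOSL1 hairpin groups fitted (0.0624, 0.0594), which makes 8 of 11 alternatives for GSTP1 and 7 of 11 for TXN2.

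Of 6 genes of NADPH supply, IDH1 and ME1 fell in FOSL1sh3, and none of the 6 was called in FOSL1sh10. IDH1, the cytosolic isocitrate dehydrogenase, averaged 27.8 ± 3.95 CPM in FOSL1sh3, 38.7 ± 6.30 in FOSL1sh10 and 47.5 ± 10.3 in GFPsh, and fell by 0.78 in FOSL1sh3 (SE 0.182, edgeR adjusted p = 0.0119). Its log2 fold change in FOSL1sh10 was -0.29 (SE 0.179, 95% interval -0.67 to 0.08, adjusted p = 0.403), and the difference of -0.48 between the hairpins did not pass (adjusted p = 0.0921), except with library totals alone (0.0249). ME1, the cytosolic malic enzyme, averaged 31.9 ± 5.75 CPM in FOSL1sh3, 45.5 ± 4.36 in FOSL1sh10 and 48.0 ± 3.49 in GFPsh. It fell by 0.59 in FOSL1sh3 (SE 0.156, adjusted p = 0.0225), and was lower there than in FOSL1sh10 (log2 -0.51, adjusted p = 0.0393). Without GFPsh replicate 1 or 3, the FOSL1sh3 calls did not pass for IDH1 (0.0524 and 0.0652) or ME1 (0.0685 and 0.0817), nor did that of ME1 without FOSL1sh3 replicate 3 (0.0809). The ME1 difference between hairpins was lost without FOSL1sh3 replicate 1 (0.0596) or 3 (0.13) and without FOSL1sh10 replicate 1 (0.0603), 2 (0.192) or 3 (0.0883), and with only those groups fitted (0.0714).

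Of 7 tested haem and iron genes, SLC48A1 was called, in FOSL1sh3 alone among the comparisons with GFPsh. SLC48A1, which carries haem out of endosomes and lysosomes, had 29.6, 21.3 and 25.3 CPM in FOSL1sh3, 11.9, 13.5 and 14.3 CPM in FOSL1sh10, and 9.08, 11.4 and 10.8 CPM in GFPsh. FOSL1sh3 stood apart from both other groups in every library, and every FOSL1sh10 library was also above every GFPsh library. It rose by 1.28 on the log2 scale in FOSL1sh3 (SE 0.189, edgeR adjusted p = 0.000458), beside 0.35 in FOSL1sh10 (SE 0.193, adjusted p = 0.35), and the difference of 0.93 between hairpins passed (SE 0.185, adjusted p = 0.00312). Both calls held under all 11 alternatives.

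Of 10 tested aldo-keto reductase and detoxification genes, AKR1C2, AKR1C3 and AKR7A2 rose in FOSL1sh3, and their values in FOSL1sh10 were above 0 without passing the threshold. AKR1C3, a ketosteroid and prostaglandin reductase, averaged 48.5 ± 9.73 CPM in FOSL1sh3, 44.3 ± 3.79 in FOSL1sh10 and 29.7 ± 4.12 in GFPsh. Its log2 fold changes were 0.71 in FOSL1sh3 (SE 0.168, edgeR adjusted p = 0.0126) and 0.58 in FOSL1sh10 (SE 0.168, 95% interval 0.22 to 0.93, adjusted p = 0.0535). Every library of both hairpins was above every GFPsh library, the difference between hairpins was 0.13 (adjusted p = 0.639), and 4 alternatives called the FOSL1sh10 value, with adjusted p of 0.0173 to 0.0406. The FOSL1sh3 call did not pass without GFPsh replicate 2 (0.0589). AKR1C2 had 1.12 in FOSL1sh3 (SE 0.353, adjusted p = 0.0486) and 0.79 in FOSL1sh10 (adjusted p = 0.226, and 0.029 without the low-count filter), with 0.33 between the hairpins (adjusted p = 0.56). Its FOSL1sh3 call was lost in 6 of 11 alternatives, among them library totals alone (0.0559), DESeq2 (0.126) and the fits without GFPsh replicate 1 (0.169) or 2 (0.164) or FOSL1sh3 replicate 3 (0.319). AKR7A2 and AKR1A1, both aldehyde reductases and both named after their values were seen, had 0.46 in FOSL1sh3 against GFPsh (adjusted p = 0.0322) for AKR7A2 and 0.43 in FOSL1sh3 against FOSL1sh10 (adjusted p = 0.048) for AKR1A1. The AKR7A2 call was lost without GFPsh replicate 1 (0.0747), 2 (0.14) or 3 (0.0545) or FOSL1sh3 replicate 1 (0.0707) or 3 (0.072). With library totals alone (0.0736), no low-count filter (0.0621) and only those groups fitted (0.0635) it was lost too, 8 of 11 alternatives in all. Between the hairpins the AKR7A2 value was 0.35 (adjusted p = 0.0926), with 0.11 in FOSL1sh10 against GFPsh (adjusted p = 0.71). The AKR1A1 call was lost without FOSL1sh3 replicate 1 (0.17) or 2 (0.0555) or FOSL1sh10 replicate 1 (0.111), 2 (0.133) or 3 (0.124), with library totals alone (0.212), without the filter (0.0746) and with only those groups fitted (0.0562), and 9 of 11 alternatives lost it. AKR1C2 shares the limit on near-identical copies given for AKR1C1. How far it applies to AKR1C3, which held 211 to 531 counts a library, was not tested.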

How the data were processed

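RNA was sequenced by a low-input protocol (MARS-seq) from total RNA with an RQI above 7, per the labels. The authors deposited raw counts, 1 table per library, made with featureCounts 1.6.0 over exons of GENCODE 28 without an option for strand, multi-mapped or overlapping reads, per the file headers. Reads were aligned to hg38 with STAR 2.5.3a after FastQC 0.11.5, per the submitters' processing notes. As background, this protocol tags molecules near the 3′ end; the sources used here do not say whether counts were collapsed by molecular identifier. Limits that rest on counts cover counting error only.

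Groups came from the sample titles. Counts were fitted with edgeR 4.0.16 in R 4.3.3: genes were filtered by filterByExpr (at least 10 counts, 15 in total), libraries scaled by TMM, and all 9 libraries fitted together for quasi-likelihood F tests, with Benjamini-Hochberg adjustment over 12814 genes and calls at an adjusted p under 0.05. The SE is the log2 fold change divided by the root of F. Library totals were 6893026 to 10604251, and no pair within a group agreed within sampling noise (chi-square per degree of freedom 9.07 to 30.4), which does not show that they are separate cultures. Alternatives were scaling by library totals, no filter, fits of only the 2 groups compared, a replicate block, DESeq2 1.42.0 and leaving out each library of a pair.

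Symbols were matched by Ensembl identifier for 57754 genes and by unique GENCODE 29 name for 444 more. Members and lists were chosen with earlier results of these data known. The naming rule took FOSL1, all members, the 3 genes most like NFE2L2 and NQO1, and up to 4 genes a list with the smallest p for both hairpins against GFPsh and a mean of at least 30 counts; of the list genes, those called plus KEAP1, MAFF and MAFG are given with values.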

Additional observations from a re-analysis of the deposited data

Results flagged for a closer look

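The effects of the hairpins differed by the direct test of FOSL1sh3 against FOSL1sh10 (edgeR quasi-likelihood test, adjusted p under 0.05) for 10 of the genes described. For FOSL1 itself the difference was -0.05 (adjusted p = 0.9). Among the NRF2 targets, the log2 difference was -0.84 for GCLM, -0.67 for HMOX1 and -1.12 for AKR1B10. Among the wider redox genes it was -1.15 for NFE2L3, 0.56 for GSTP1, 0.71 for ABCC3, 0.49 for TXN2, -0.51 for ME1, 0.93 for SLC48A1 and 0.43 for AKR1A1. Apart from KEAP1, MAFF and MAFG, the wider genes described were named because they were called in a comparison, so the count of 10 gives no share. Over all that were tested, 3 of 8 NRF2 genes and 12.1% of the 58 wider genes were called here, beside 12.7% of all tested genes.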

How the results depend on the processing

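Over the 8 tested NRF2 genes and 3 comparisons, 263 alternative values were computed, of which 240 kept their direction and side of the threshold, 9 lost a call, 7 gained one and 7 changed sign. For FOSL1 and the wider genes these were 475, 61, 12 and 13 of 561. FOSL1sh3 against GFPsh called 1392 genes, and 599 to 1803 when 1 library was left out. FOSL1sh10 against GFPsh called 676, with 1124 when only those groups were fitted and 347 to 422 with a library left out. FOSL1sh3 against FOSL1sh10 called 1633, and 712 to 1920 with a library left out. Members called with a library left out were 1 to 2, 0 to 1 and 1 to 4 in these comparisons. They were 2 for FOSL1sh10 against GFPsh with only those groups fitted, and 5 between the hairpins with library totals alone. The replicate block gave 1456, 695 and 1673 genes and 1, 1 and 3 members. Same-numbered libraries had correlations of -0.116 to 0.183, and differently numbered ones -0.165 to 0.156. Each FOSL1sh3 library correlated best with its own number in GFPsh (0.183, 0.0291 and 0.129). FOSL1sh10 replicates 1 and 2 correlated least with their own number in GFPsh (-0.116 and -0.0953), and replicate 3 best (0.0379). Between the hairpins, FOSL1sh3 replicates 1 and 3 correlated least with their own number (-0.0448 and -0.0208), and replicate 2 best (0.0323). Whether the numbers mark shared batches is not stated in the labels and was not tested, and the main fit did not pair them. The block lost the calls of GSTP1 (0.0502) and AKR1A1 (0.0578) between hairpins and gained that of NFE2L3 in FOSL1sh3 against GFPsh (0.0344). AKR1C1 was filtered out of the fit of FOSL1sh3 and GFPsh alone, and SRXN1 could be fitted without the filter only.

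No called value changed sign. Uncalled log2 values that did when 1 library was left out ran, in FOSL1sh3 against GFPsh, from -0.13 to 0.11 for NQO1 and -0.13 to 0.053 for HMOX1. In FOSL1sh10 against GFPsh they ran from -0.041 to 0.22 for NFE2L2, -0.024 to 0.16 for GCLM and -0.19 to 0.0081 for ABCC3. Between the hairpins they ran from -0.17 to 0.14 for FOSL1, -0.10 to 0.10 for KEAP1, -0.13 to 0.019 for MAFF, -0.21 to 0.65 for AKR1C2 and -0.023 to 0.092 for GPX4. Library totals alone reversed ABCC3 (0.00053) and ME1 (0.027) in FOSL1sh10 against GFPsh, and KEAP1 (-0.13), AKR1C3 (-0.036) and GPX4 (-0.15) between the hairpins. The cause of these changes was not tested.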

Other observations

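Of the 66 redox genes, 7 had too few counts for a test: MAFK, GPX2, GGT1, ABCC2, SLC40A1, AKR1B1 and CBR3. GPX2, an epithelial glutathione peroxidase often induced by NRF2, held 2 to 15 counts a library. AKR1B1, the close relative of AKR1B10, held 2 to 14. SOD2 was not analysed here, because more than 1 identifier carries its name.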
